A study of Mus musculus with 2 samples.

Results

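The aldehyde dehydrogenases, alcohol dehydrogenases and aldo-keto reductases were examined in liver tumours of 1 wild-type and 1 HLF-deficient mouse sample. Members were all genes whose symbol begins with Aldh, Adh or Akr followed by a digit and that had at least 1 probe set naming no other gene. This gave 43 genes of 19938 on the array, read by 46 probe sets: 21 Aldh, 7 Adh and 15 Akr genes. For a gene with several probe sets the brightest was used. The RefSeq table also lists Akr1b3 and Akr1b7, which no probe set named here and which were not analysed here.

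Both groups were treated with DEN (diethylnitrosamine, a liver carcinogen), and carcinoma tissue was collected from each. The wild-type group carried no labelled alteration, and the other group was labelled deficient in HLF (hepatic leukemia factor), a transcription factor of the PAR bZIP family that takes part in circadian control of detoxification genes. Strain, age, dose, time after DEN, the cells in which Hlf was deleted and whether animals were pooled are not given in the sources used here. Each genotype had 1 array, so no p-value or error between tumours exists for any value below, and no difference can be set against the spread between mice. Values are log2 RMA expression, and each difference is HLF-deficient minus wild-type.

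These families handle the carbonyl group. Alcohol dehydrogenases oxidise alcohols such as ethanol and retinol to aldehydes, aldehyde dehydrogenases oxidise aldehydes to acids, and aldo-keto reductases turn aldehydes and ketones, many steroids among them, into alcohols. In liver they clear ethanol, lipid peroxidation products and drugs, make retinoic acid, and take part in bile acid, amino acid and folate metabolism.

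A gene was compared when it reached the floor of expression on at least 1 array. The floor, a log2 value of 2.98, is the 95th percentile of 1243 probe sets for olfactory, vomeronasal and taste receptor genes. Of all genes, 14575 were compared, with a median difference of 0.07. Hlf itself stood at 5.13 on the wild-type array and 3.79 on the HLF-deficient one, 2.54-fold lower but still above the floor. Whether its probe set reads the deleted part is not known here. All 9 measured hepatocyte markers lay above the floor on both arrays, among them Alb at 12.55 and 12.41, and their median difference was 0.03. Several other marker lists differed more. Perivenous hepatocyte markers were positive in 8 of 8 genes with a median of 0.67, endothelial markers in 5 of 7 with a median of 0.81, stellate cell markers in 7 of 8 with a median of 0.36, and macrophage markers in 6 of 8 with a median of 0.29. These 4 medians stayed positive under each scaling tried, as did the median of all genes compared. Negative under each scaling were the medians of pancreas markers (-0.52, 0 of 3 positive), adrenal cortex markers (-0.44, 0 of 3) and gastric and intestinal markers (-0.22, 0 of 5). Pancreas and adrenal cortex markers were mostly near the floor of 2.98. Median levels on the wild-type and HLF-deficient arrays were 3.63 and 3.11 for pancreas markers and 3.29 and 2.85 for adrenal cortex markers. Cpa1 of the pancreas list and Star of the adrenal list were below the floor on the HLF-deficient array. The medians of periportal (-0.05), cholangiocyte (-0.12), lymphocyte (-0.05) and adipocyte (-0.11) markers changed sign or reached 0 with the scaling. In bulk tissue, fewer cells of a type and less RNA per cell cannot be told apart, and the part of these markers in the results below was not tested.

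Of the 43 members, 37 were compared. As a group they were near level: 18 differences were positive and 19 negative, and the median was -0.01 against 0.07 for all genes compared. The member median turned to 0.12 with the arrays centred (each array's median set equal), where that of all genes was 0.20. It was -0.11 after quantile and after loess normalization, against 0.025 and 0.04 for all genes. The member median thus lay below that of all genes under each of these scalings, which was not tested. Akr1c18 alone was at least 2-fold higher in the HLF-deficient tumour and Akr1d1 alone at least 2-fold lower. Among all genes compared, 1.5% were at least 2-fold higher and 0.364% at least 2-fold lower, so 1 of 37 members in each direction is no result about the families. At 1.5-fold, 3 members were higher (Akr1c18, Aldh1l2 and Akr1b8), which is 8.11% against 6.37% of all genes. Lower by 1.5-fold were 4 members (Akr1d1, Aldh1a7, Aldh3b3 and Aldh3b2), which is 10.8% against 3.11% of all genes; Aldh3b3 and Aldh3b2 are neighbouring genes of similar sequence and do not count as independent. These calls moved with the scaling. Akr1b8 was inside 1.5-fold after quantile (0.54) and loess (0.55) normalization, Aldh3b2 was just inside it with the arrays centred (-0.58) and Aldh3b3 with the mean of its probe sets (-0.45), while Aldh1a1 passed it after quantile or loess normalization (-0.62 in both). The other 30 members lay within 1.5-fold, which is 81.1% against 90.5% of all genes. For a technical yardstick, probe sets that read the same gene were compared in 739 genes, which gave an SD of 0.24 for the difference of 1 probe set, and 21 of the 37 members differed by less than this. That SD holds no variation between mice. The median absolute difference was 0.22 for the members and 0.24 for all genes compared. The share of all genes below that SD was not counted here, so the count of 21 is no result about the families.

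**Figure D1:**
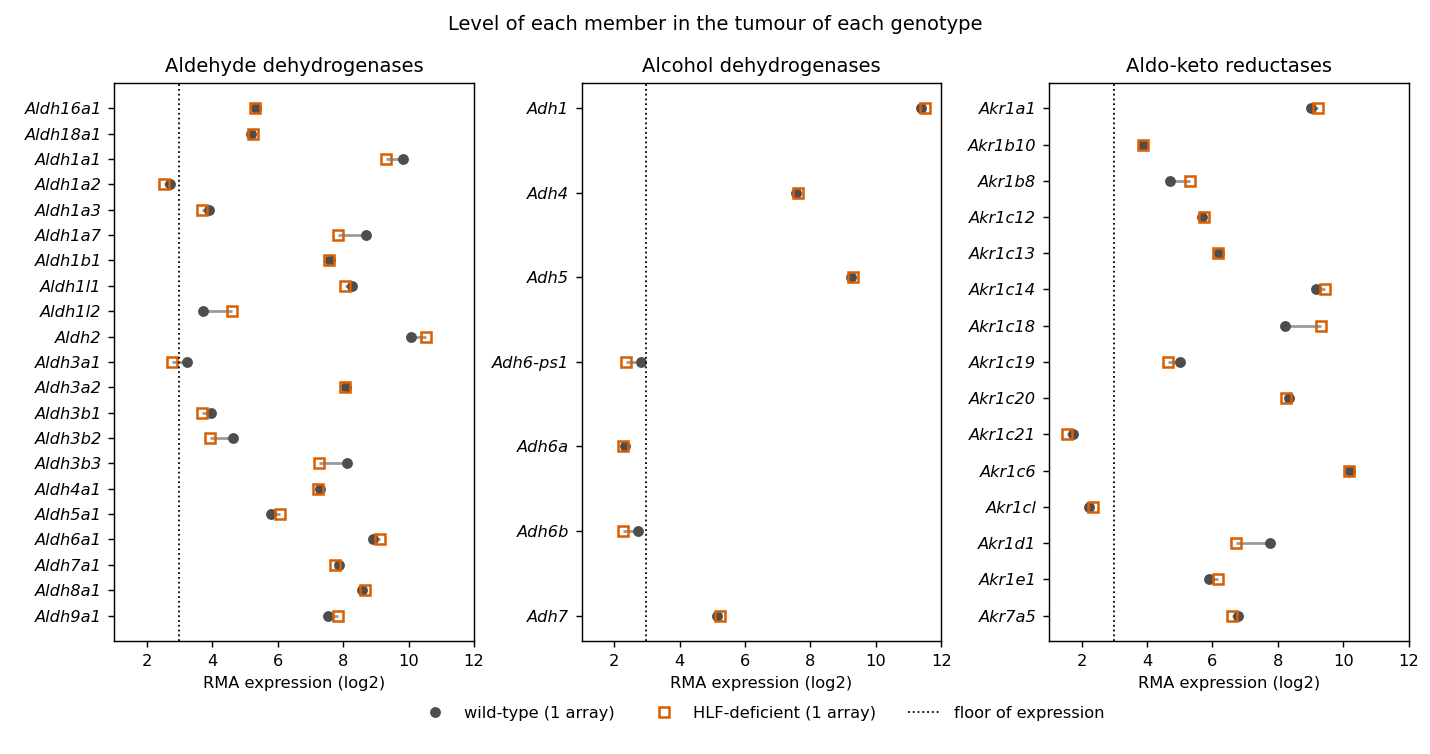
Log2 RMA expression of the 43 members on the wild-type array (filled circles) and the HLF-deficient array (open squares), 1 panel per family, with the floor of 2.98 as a dotted line. Most pairs of symbols nearly coincide; the widest gaps are those of Akr1c18 (8.21 and 9.31), Akr1d1 (7.75 and 6.72) and Aldh1l2 (3.71 and 4.60).

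The alcohol dehydrogenases were nearly level. Adh1, the class I enzyme that oxidises ethanol and retinol in liver, had levels of 11.37 on the wild-type array and 11.49 on the HLF-deficient one. Adh4, a class II enzyme of liver, stood at 7.54 and 7.61. Adh5, the class III enzyme that oxidises the glutathione adduct of formaldehyde and reduces S-nitrosoglutathione, stood at 9.23 and 9.29. Adh7, a class IV enzyme known from stomach and other epithelia, stood at 5.15 and 5.24. The 4 differences ran only from 0.06 to 0.12, and those of Adh4 and Adh5 turned negative after quantile or loess normalization and that of Adh7 after quantile normalization. Adh6a, Adh6b and the pseudogene Adh6-ps1 were below the floor on both arrays.

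Among the enzymes of acetaldehyde, Aldh2, the mitochondrial enzyme that clears most acetaldehyde from ethanol, had levels of 10.07 on the wild-type array and 10.53 on the HLF-deficient one. The difference of 0.46 is 1.37-fold, stayed between 0.37 and 0.58 under the scalings tried, and ranked 1700th among the 14575 genes ordered from the largest increase. Aldh1b1, a related mitochondrial enzyme, was level at 7.58 and 7.55. Beside them, Cyp2e1, the microsomal ethanol-oxidising cytochrome, differed by 0.51 and Cat, the peroxisomal catalase, by 0.15. Cyp2e1 also belongs to the perivenous marker list above, whose median difference was 0.67. Of the 6 listed genes of ethanol and acetate handling outside the families, 0 passed 2-fold in either direction, and Acss3, an acetyl-CoA synthetase family gene, was lowest at -0.37.

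Retinaldehyde dehydrogenases make retinoic acid from retinaldehyde. Their list, which also held related cytosolic enzymes, included a neighbouring pair that was lower in the HLF-deficient tumour. Aldh1a1, the main cytosolic enzyme of liver in this group, had levels of 9.83 on the wild-type array and 9.31 on the HLF-deficient one, so it was 1.43-fold lower (-0.52). Its neighbour and close relative Aldh1a7 had levels of 8.70 and 7.84, a difference of -0.86 or 1.81-fold, and ranked 92nd among the decreases of all genes. Both stayed lower under each scaling, Aldh1a1 between -0.62 and -0.40 and Aldh1a7 between -0.99 and -0.74. The genes resemble each other in sequence, so their probe sets may cross-hybridise, which was not tested. Whether Aldh1a7 acts on retinaldehyde was not examined here. Aldh1a3, another retinaldehyde dehydrogenase, stood at 3.91 and 3.68, not far above the floor, and Aldh1a2 was below the floor on both arrays. Aldh8a1, first described as acting on retinaldehyde and now known from tryptophan breakdown, was level at 8.58 and 8.67.

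The sequences before the start sites of Aldh1a1 and Aldh1a7 are shown because these neighbours were lower together. RefSeq gives 2 promoter windows for Aldh1a1; the one printed resembles that of Aldh1a7, and the other shares no run longer than 8 bases with it. Both are the 250 bases before the start in GRCm38.p6, 5′ to 3′ on the strand of the gene, Aldh1a1 at chr19:20601718-20601967 on the plus strand and Aldh1a7 at chr19:20727557-20727806 on the minus strand. Capitals mark the longest run the 2 genes share.
Aldh1a1: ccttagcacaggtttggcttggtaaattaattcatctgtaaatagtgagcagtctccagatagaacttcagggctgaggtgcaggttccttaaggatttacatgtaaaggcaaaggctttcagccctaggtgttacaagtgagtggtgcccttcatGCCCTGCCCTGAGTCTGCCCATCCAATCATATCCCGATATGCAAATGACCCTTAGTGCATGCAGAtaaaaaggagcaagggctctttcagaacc
Aldh1a7: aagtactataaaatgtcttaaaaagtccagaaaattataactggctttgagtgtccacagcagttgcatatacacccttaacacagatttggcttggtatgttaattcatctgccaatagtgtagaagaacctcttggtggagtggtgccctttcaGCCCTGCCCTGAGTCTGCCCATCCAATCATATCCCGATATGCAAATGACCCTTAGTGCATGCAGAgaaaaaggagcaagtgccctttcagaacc
The shared run is 65 bases long and begins 94 bases before the start site in both genes. Of the last 100 bases before the start, 94 are identical position by position. Farther upstream the sequences are also alike in places but out of register: the longest run shared by the first 150 bases is 12 bases long and begins at base 13 of the Aldh1a1 and base 88 of the Aldh1a7 sequence. This describes the sequences and does not say what sets the levels.

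Outside the families, the list of retinoid genes held 22 measured members, of which 21 were compared. Its median difference was 0.04, which turned to -0.06 after quantile and -0.05 after loess normalization. Dhrs9 and Rdh9, both of the short-chain dehydrogenases that oxidise retinol and steroids, were higher by 2.16-fold and 2.11-fold, with levels of 5.84 and 6.95 for Dhrs9 and 7.87 and 8.95 for Rdh9. After quantile or loess normalization neither reached 2-fold. No member was 2-fold lower, and the lowest value was -0.67 in Rdh16, of the same enzyme class. Cyp26a1, which breaks down retinoic acid, differed by 0.26 and Rarb, a retinoic acid receptor, by -0.13.

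All 5 compared members of the Aldh3 group, which oxidise fatty and aromatic aldehydes, had negative differences, although that of Aldh3a2 turned to 0.07 with the arrays centred. Aldh3a2, the microsomal fatty aldehyde dehydrogenase, was nearly level at 8.09 and 8.04. Aldh3b1, an enzyme for aldehydes from lipid peroxidation, stood at 3.95 and 3.68. Aldh3b2, a related gene, stood at 4.62 on the wild-type array and 3.92 on the HLF-deficient one, 1.63-fold lower. Aldh3a1, known for its high level in cornea and its induction in some liver tumours, had a wild-type level of 3.21. Its HLF-deficient value of 2.75 was under the floor, so it was at least 1.17-fold lower.

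Aldh3b3 had the largest difference of this group, with levels of 8.11 and 7.26 in its brightest probe set, a difference of -0.85 or 1.80-fold. Its 3 probe sets did not give the same answer. The second had levels of 3.01 and 2.33, the latter below the floor, and the third stood at 2.99 and 3.17, a difference of 0.18. The mean of the 3 probe sets differed by -0.45. A further probe set that names both Aldh3b2 and Aldh3b3 was left out of the comparison and had levels of 3.89 and 3.61. The difference of Aldh3b3 thus rests on 1 bright probe set.

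The aldehyde dehydrogenases of amino acid and carnitine metabolism stayed close to level. Aldh9a1, which acts in carnitine synthesis, had levels of 7.55 and 7.85, and its difference of 0.30 was the largest of 6. Aldh5a1, the succinic semialdehyde dehydrogenase of GABA breakdown, stood at 5.79 and 6.05, and Aldh6a1, the methylmalonate semialdehyde dehydrogenase of valine breakdown, at 8.92 and 9.14. These 3 stayed positive under each scaling. Aldh4a1 of proline breakdown stood at 7.28 and 7.22, Aldh7a1 of lysine breakdown at 7.86 and 7.76, and Aldh18a1 of proline synthesis at 5.18 and 5.25. The sign of the last 3 changed with the scaling. Of the 10 compared partner genes of these routes 0 passed 2-fold in either direction, with Prodh, the first enzyme of proline breakdown, highest at 0.50 and Abat, the GABA transaminase, lowest at -0.27. Aldh16a1, a member thought to lack catalytic activity in mammals, was level at 5.33 and 5.31.

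The formyltetrahydrofolate dehydrogenases, which release carbon from the folate pool, differed in opposite directions. Aldh1l2, the mitochondrial enzyme, had levels of 3.71 on the wild-type array and 4.60 on the HLF-deficient one, a difference of 0.90 or 1.86-fold, and ranked 280th among the increases. It reached 1.02 with the arrays centred. Aldh1l1, the abundant cytosolic enzyme of liver, stood at 8.26 and 8.05, a difference of -0.21, which stayed between -0.35 and -0.09 under the scalings tried. The difference between the 2 genes was not tested.

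The other folate and one-carbon genes gave a median of -0.07 over 8 compared members, turning to 0.05 with the arrays centred, and 0 passed 2-fold in either direction. Of the mitochondrial enzymes, Mthfd2 differed by 0.53, Mthfd1l by 0.17 and Shmt2 by 0.05. Of the cytosolic ones, Mthfd1 differed by -0.20, Shmt1 by -0.23, Ftcd, of histidine breakdown, by -0.48 and Gnmt, the glycine methyltransferase of liver, by -0.60. The values of this list were set side by side with Aldh1l2 and Aldh1l1 after they were seen.

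**Figure D2:**
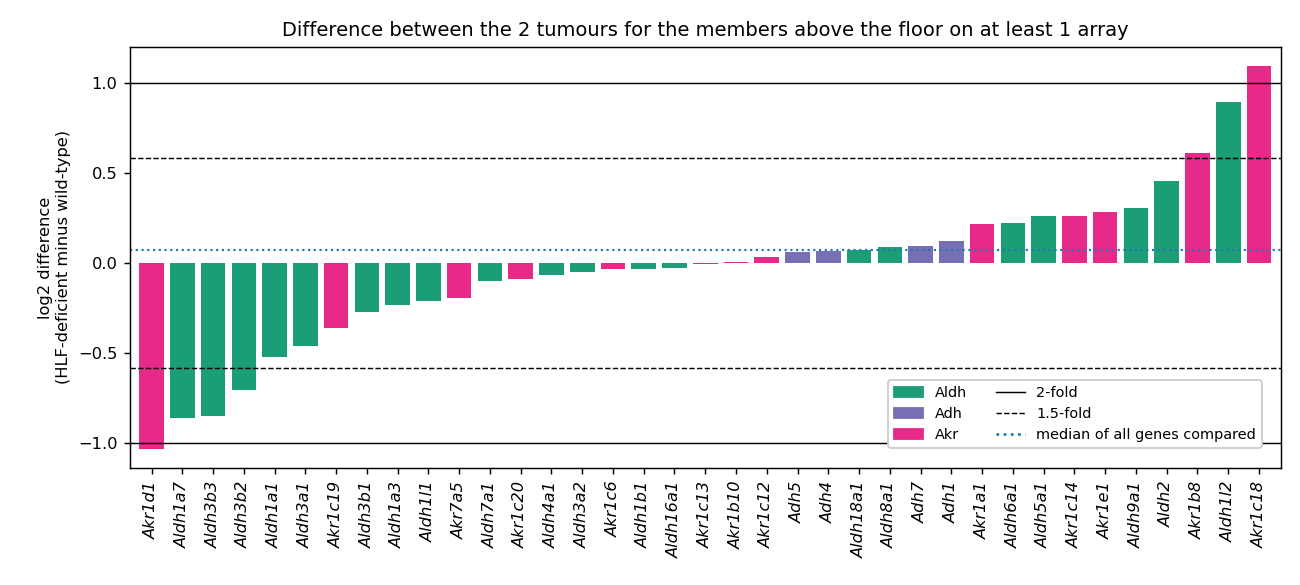
Difference in log2 expression, HLF-deficient minus wild-type, of the 37 members above the floor on at least 1 array, in rising order and coloured by family, with lines at 1.5-fold and 2-fold and a dotted line at the median of all 14575 genes compared (0.07). Akr1c18 at 1.10 and Akr1d1 at -1.03 lie beyond 2-fold, and the 4 Adh genes lie between 0.06 and 0.12; the value of Aldh3a1 is the measured one, with its HLF-deficient level below the floor.

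Akr1d1 had the largest decrease of the members. It encodes the reductase that saturates the steroid double bond during bile acid synthesis. Its level was 7.75 on the wild-type array and 6.72 on the HLF-deficient one, both well over the floor of 2.98. The difference of -1.03 is 2.04-fold and ranked 42nd among the decreases of 14575 genes. It lies just beyond the 2-fold rule, fell inside it at -0.91 when the arrays were centred, and was -1.20 after quantile normalization.

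The other 12 bile acid synthesis genes had a median difference of 0.16, with 1 at least 2-fold higher and 0 at least 2-fold lower. Cyp8b1, the sterol hydroxylase that leads to cholic acid, was lowest, with levels of 6.90 and 6.04 and a difference of -0.86, which passed 2-fold after quantile or loess normalization. Cyp7a1, the rate-limiting enzyme of the classical route, stood at 7.95 and 8.11, and Hsd3b7, which makes the ketosteroid on which Akr1d1 acts, at 7.81 and 7.97. In the alternative route Cyp7b1, an oxysterol hydroxylase, was 3.13-fold higher with levels of 7.70 and 9.35, and Cyp27a1 differed by 0.44. Among these 12 genes, differences ran from -0.86 in Cyp8b1 to 1.65 in Cyp7b1, with Cyp7a1 and Hsd3b7 at 0.16 each.

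Among the hydroxysteroid dehydrogenases of the Akr1c group, Akr1c18 had the largest difference. It encodes the enzyme that inactivates progesterone, best known from the ovary. Its level was 8.21 on the wild-type array and 9.31 on the HLF-deficient one, a difference of 1.10 or 2.14-fold, and it ranked 159th among the increases. After quantile and loess normalization the difference was 0.99 and 0.98, just inside 2-fold, and it was 1.22 with the arrays centred.

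The other Akr1c genes moved less. Akr1c6, a liver enzyme that acts on androgens and estrogens, was level at 10.22 and 10.19. Akr1c14, a hydroxysteroid dehydrogenase, stood at 9.17 and 9.43, and its difference of 0.26 stayed positive under each scaling. Akr1c20, another liver member, stood at 8.33 and 8.24. Akr1c12 and Akr1c13, a closely similar pair, stood at 5.69 and 5.73 and at 6.19 and 6.18. Akr1c19 stood at 5.01 and 4.65, and its difference of -0.36 was the lowest of the group and stayed negative under each scaling. Akr1c21 and Akr1cl were below the floor on both arrays. Cross-hybridisation among the closely related Akr1c transcripts was not tested.

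These genes lie side by side. In the gene order of GRCm38.p6, 21 of the compared members fell in 6 clusters of family genes with no more than 2 other protein-coding genes between neighbours. In the Akr1c cluster Akr1c18 lies between Akr1c14 and Akr1c13, which differed by 0.26 and -0.01. The 4 compared genes of the Adh cluster differed little, while the 3 genes of the Aldh3b cluster, at -0.27, -0.85 and -0.71, and both genes of the Aldh1a cluster were all negative under each scaling. In the Akr1b cluster Akr1b8 differed by 0.61 and its neighbour Akr1b10 by 0.01.

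**Figure D3:**
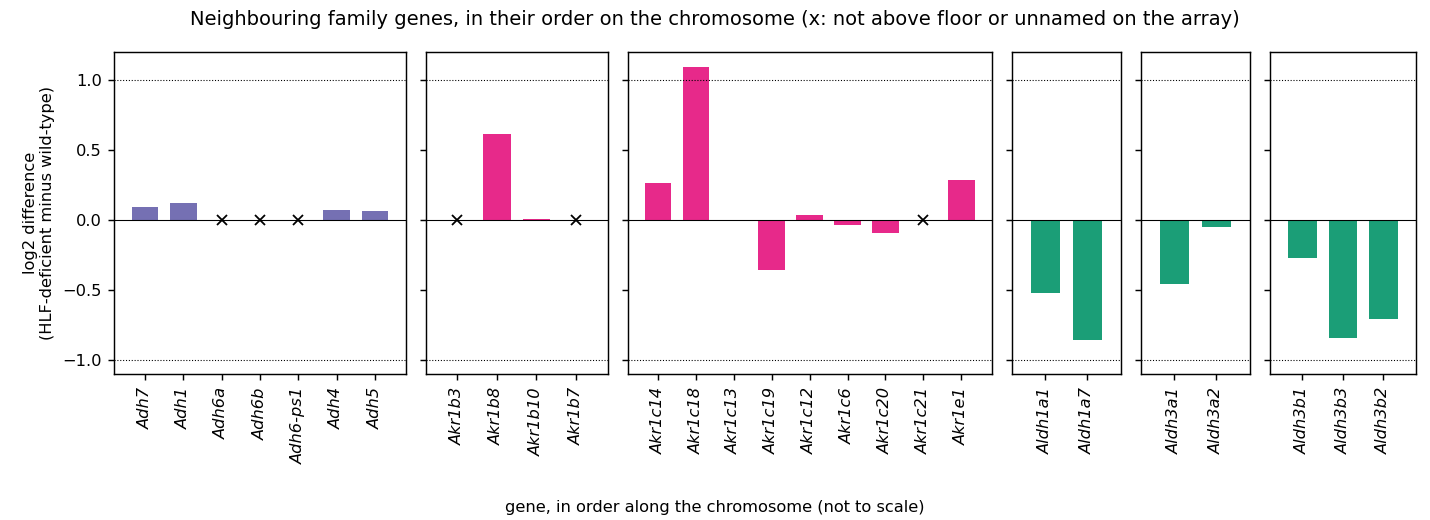
Difference in log2 expression, HLF-deficient minus wild-type, of neighbouring family genes in their chromosomal order, 1 panel per cluster, with dotted lines at 2-fold and crosses for genes below the floor on both arrays or not named on the array. Akr1c18 reaches 1.10 between neighbours at 0.26 and -0.01, and all bars of the Aldh1a and Aldh3b clusters point down.

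The upstream sequences of the 2 members beyond 2-fold are shown next, with any match to the D-box, the element that PAR bZIP factors such as HLF bind. Exact matches of TTATGTAA and TTACGTAA were sought on both strands of RefSeq windows that run from 250 bases before to 50 bases after the start; only the 250 bases before it are printed, 5′ to 3′ on the strand of the gene. Akr1d1 lies at chr6:37529923-37530172 on the plus strand and Akr1c18 at chr13:4150647-4150896 on the minus strand of GRCm38.p6. Capitals mark a match.
Akr1d1: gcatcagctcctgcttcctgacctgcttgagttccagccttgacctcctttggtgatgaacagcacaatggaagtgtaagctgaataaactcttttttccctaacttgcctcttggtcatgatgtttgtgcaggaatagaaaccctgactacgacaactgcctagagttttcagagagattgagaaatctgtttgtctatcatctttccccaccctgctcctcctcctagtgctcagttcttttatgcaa
Akr1c18: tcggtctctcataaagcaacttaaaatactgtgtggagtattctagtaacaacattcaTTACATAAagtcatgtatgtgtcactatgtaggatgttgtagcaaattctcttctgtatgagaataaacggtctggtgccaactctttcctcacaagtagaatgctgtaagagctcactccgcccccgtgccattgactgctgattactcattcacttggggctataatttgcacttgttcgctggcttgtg
The match in Akr1c18 reads TTACATAA, which is TTATGTAA on the opposite strand, and begins 192 bases before the start. It was the only match to TTATGTAA among 37 windows of 34 members, while 0.938% of all 32851 windows held one. No member window held TTACGTAA, which 0.119% of all windows held. A match is a string of letters and does not show that a factor binds there, and the absence of one in Akr1d1 concerns this window only.

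The core of the antioxidant response element, TGACNNNGC, was sought in the same windows because NRF2 (a stress-activated transcription factor) is known to induce several of these enzymes. It was found in 5 of the 37 member windows, which is 13.5% against 12.4% of all windows. The 5 genes were Akr1cl, Aldh9a1, Adh6a, Aldh1a2 and Akr1c19, and of the 7 members beyond 1.5-fold, 5 had a window and 0 of these held a match. Windows were not in the table for Adh6-ps1, Adh6b, Akr1c20, Aldh1a3, Aldh1l2, Aldh2, Aldh3a1, Aldh3b2 and Aldh7a1.

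Of the 5 aldose and aldehyde reductases, Akr1b8 alone passed 1.5-fold. Akr1b8, an aldose reductase relative induced by growth factors and found in rodent liver tumours, had levels of 4.71 on the wild-type array and 5.32 on the HLF-deficient one, a difference of 0.61 or 1.53-fold that stayed between 0.54 and 0.73 under the scalings tried. Its relative Akr1b10 was level at 3.87 on both arrays. Akr1a1, the general aldehyde reductase that also serves vitamin C synthesis in mice, stood at 9.03 and 9.24. Akr1e1, a sugar ketone reductase, stood at 5.88 and 6.17. Their differences were 0.22 and 0.29, positive under each scaling. Akr7a5, a reductase of succinic semialdehyde and of aflatoxin aldehydes, went the other way, at 6.78 and 6.59, and stayed negative under each scaling.

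Functionally related genes outside the families gave the following values. The NRF2 target list had a median of 0.21 over 13 compared genes, positive under each scaling. The median of all genes compared, 0.07, was also positive under each scaling. After quantile normalization the list stood at 0.09 and all genes at 0.025. Hmox1, heme oxygenase, was 2.51-fold higher, and Nqo1, a quinone reductase, was lowest at -0.25. The other carbonyl reductases and aldehyde oxidases had a median of 0.08 over 11 genes, which was -0.05 after quantile normalization, and 0 passed 2-fold in either direction; Xdh, xanthine dehydrogenase, was highest at 0.31. Among genes above the floor on both arrays, Dcxr, a carbonyl and sugar reductase, was lowest at -0.20; Aox2, an aldehyde oxidase below the floor on the HLF-deficient array, was at least 1.07-fold lower, so its place in this order is not established. Of the other steroid enzymes, 14 were compared with a median of 0.02, which was -0.07 after quantile normalization. Cyp17a1, a steroid hydroxylase, was 2.53-fold higher, and 0 were 2-fold lower. In the polyol and fructose list 2 genes were measured, Khk, the fructose kinase, at 0.14 and Tkfc at -0.07.

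**Figure D4:**
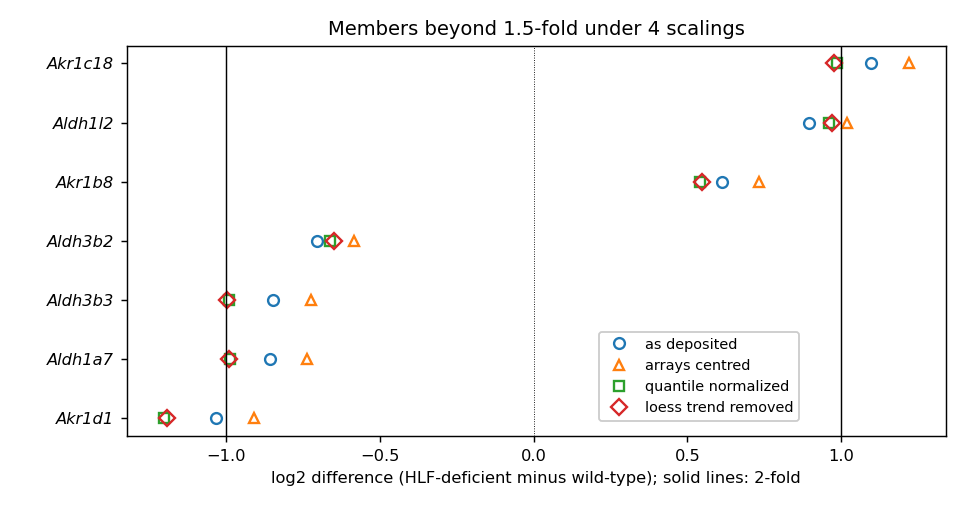
Difference in log2 expression, HLF-deficient minus wild-type, of the 7 members beyond 1.5-fold with the values as deposited (circles), arrays centred (triangles), quantile normalized (squares) and with the loess trend removed (diamonds); solid lines mark 2-fold. No member changes sign, but Akr1d1 is inside 2-fold with the arrays centred (-0.91), Akr1c18 is inside it after quantile (0.99) and loess (0.98) normalization, and Aldh1l2 is outside it with the arrays centred (1.02).

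The 6 members below the floor on both arrays, Adh6-ps1, Adh6a, Adh6b, Akr1c21, Akr1cl and Aldh1a2, had levels between 1.54 and 2.81, and no fold is given for them.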

How the data were processed

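Expression in 2 carcinoma samples was measured on 1 Affymetrix array each. The deposited values are log2 expression made by the authors with RMA in Affymetrix Expression Console, per the submitters' processing notes; the version and the arrays normalized together are not given in the sources used here, and the log2 scale was read from the values. RMA compresses differences near background. Of 35556 probe sets, 21789 named exactly 1 gene in the platform annotation and were used; 21698 of these were found by gene identifier in the RefSeq table of GRCm38.p6, with 0 symbols changed.

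Differences were called at 2-fold. Genes named are all members, and in each pathway list those beyond 2-fold, otherwise the highest and lowest, plus genes set beside a member; cell markers are given as counts and medians. Members and lists were chosen with earlier results of these data known. Arrays limit the precision by their number. Alternatives were centring, quantile normalization, removal of a loess trend (span 0.4), averaging all probe sets per gene, floors at the 90th and 99th percentiles, values set to the floor, and rules of 1.5-fold and 4-fold. Protein sequences were not used here. The procedure was tested on simulated data. Python 3.11.15, pandas 2.3.3, numpy 2.4.6 and statsmodels 0.14.6 were used.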

Additional observations from a re-analysis of the deposited data

How the results depend on the processing

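No paired analysis was possible because each genotype had 1 array, and no array could be left out. The count of members at least 2-fold higher, 1 as deposited (Akr1c18, an Akr gene), was 2 with the arrays centred, where Aldh1l2 (1 Aldh gene) joined at 1.02. It was 0 after quantile or loess normalization, with Akr1c18 at 0.99 and 0.98, and 0 under the 4-fold rule. The count of members at least 2-fold lower, 1 as deposited (Akr1d1), was 0 with the arrays centred (Akr1d1 at -0.91) and 0 under the 4-fold rule. Under the 1.5-fold rule 3 members were higher, 2 of them Akr and 1 Aldh, and 4 lower, 3 of them Aldh. The scalings and the mean of probe sets were combined with the 1.5-fold rule after the data were seen. The higher members then numbered 3 with the arrays centred (8.11% against 11.5% of all genes) or probe sets averaged (8.11% against 6.3%). Without Akr1b8 they numbered 2 after quantile (5.41% against 5.12%) or loess normalization (5.41% against 5.34%). The lower members numbered 3 with the arrays centred (without Aldh3b2, 8.11% against 1.36% of all genes) or probe sets averaged (without Aldh3b3, 8.11% against 2.9%). With Aldh1a1 they numbered 5 after quantile (13.5% against 2.41%) or loess normalization (13.5% against 2.23%). Among these 5, Aldh1a1 and Aldh1a7, like Aldh3b3 and Aldh3b2, are neighbouring genes of similar sequence and do not count as independent. The mean of probe sets moved Aldh3b3 from -0.85 to -0.45. After quantile or loess normalization 0 retinoid genes were 2-fold higher (2 as deposited), and 1 bile acid gene, Cyp8b1, was 2-fold lower (0 as deposited). Centring adds 0.12 to every difference. In all, 14 of the 37 compared members changed sign under at least 1 alternative. The largest deposited difference among these, leaving its sign aside, was that of Aldh7a1 at -0.10. The Adh median was 0.08 as deposited and -0.02 after quantile or loess normalization, the Akr median 0.01, -0.11 and -0.11, and the Aldh median -0.06 as deposited and 0.07 with the arrays centred. With 1 array per genotype, differences of the size seen here cannot be set against variation between tumours.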
